A study of Mus musculus with 9 samples.

Results

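Collagen chains are the polypeptides that wind around each other in threes to form collagen, the main protein of the extracellular matrix. The genes described here were those whose symbol is Col, a type number, the letter a and a chain number, which held for 44 of the 24341 genes in the files. They were placed by structure into 11 fibrillar chains, 6 basement membrane chains, 9 FACIT chains (fibril-associated collagens with interrupted triple helices) and 18 other chains. RNA-Seq was made from mouse embryonic fibroblasts (MEFs), cells grown out of embryos, of strain C57BL/6 cultured in DMEM with fetal bovine serum. Of the 9 samples, 3 were WT, 3 were *Atm-/-* (no ATM, a kinase of the DNA damage response) and 3 were *Sirt6-/-* (no SIRT6, a deacetylase of histones and other proteins), with no treatment named for any of them. The question of the study was how loss of either protein alters gene expression in MEFs.

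The groups have limits as models of a genotype. The protocol text lists *P53-/-* and *Atm-/-P53-/-* mice among the sources of the cells, and the study's methods describe immortalized MEFs lacking both *Atm* and p53, and *Sirt6-/-* MEFs, as gifts from separate laboratories, whereas the genotype labels say only WT, *Atm-/-* or *Sirt6-/-*. Reads on *Trp53*, the p53 gene, numbered 806, 946 and 928 in *Atm-/-*, 7108, 7102 and 6563 in WT, and 9081, 9127 and 9218 in *Sirt6-/-*. A difference between genotypes therefore cannot be told apart from a difference between cell lines or in p53 status. *Sirt6* reads were 4, 5 and 7 in *Sirt6-/-* against 487, 402 and 472 in WT. *Atm* reads were 3768, 3564 and 3443 in *Atm-/-* against 1536, 1617 and 1627 in WT, so a total count over the gene does not mark the *Atm-/-* samples as lacking it. These totals do not show which exons the reads cover and therefore do not check the label, and *Atm-/-* here means the samples so labelled. Nothing in the labels says that samples of a genotype came from separate cultures or embryos, and p-values then measure only the spread between these samples, which may be technical. Counted reads per sample ranged from 32187040 to 33837949, so that raw counts of a gene could be read side by side.

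Fibrillar collagens (types I, II, III, V and XI among them) form the cross-striated fibrils that give tissue its tensile strength, with type I the main product of fibroblasts. Type IV collagen makes the open network of basement membranes, FACITs sit on the surface of fibrils, and the remaining chains build beaded filaments (type VI), hexagonal lattices (type VIII), anchoring fibrils (type VII) or span the cell membrane. Most chains work in fixed partnerships. Type I is mostly a trimer of a pair of alpha1 chains with an alpha2 chain, type IV in most tissues a pair of alpha1 with an alpha2, and type VI needs alpha1, alpha2 and a long alpha3 chain. The mRNA of a partner chain therefore bears on which trimers a cell could make, although protein was not measured in these samples.

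Several chains lie beside a partner in the genome. Promoters are shown of a type IV pair whose falls were closer in size (*Col4a1* and *Col4a2*) and of a pair whose falls were further apart (*Col4a5* and *Col4a6*). Promoter windows of 300 bases, from 250 before to 50 after the transcript start, were found in RefSeq (GRCm38.p6) for 35 of the 44 members. *Col4a1* (minus strand) and *Col4a2* (plus strand) on chromosome 8 face away from each other with transcript starts 21 bases apart, and their windows share 78 bases. *Col4a6* (minus strand) and *Col4a5* (plus strand) on chromosome X are arranged the same way with 1343 bases between their starts. *Col1a2* is shown as a type I chain that did not move with its partner in *Sirt6-/-*. Each sequence is given 5′ to 3′ on the strand of its gene, and capitals mark matches on either strand to the GC box GGGCGG, the CCAAT box or the TATA box TATAAA. The windows are *Col4a1* at chr8:11312777-11313076, *Col4a2* at chr8:11312555-11312854, *Col4a5* at chrX:141475169-141475468, *Col4a6* at chrX:141474027-141474326 and *Col1a2* at chr6:4505368-4505667.
*Col4a1*: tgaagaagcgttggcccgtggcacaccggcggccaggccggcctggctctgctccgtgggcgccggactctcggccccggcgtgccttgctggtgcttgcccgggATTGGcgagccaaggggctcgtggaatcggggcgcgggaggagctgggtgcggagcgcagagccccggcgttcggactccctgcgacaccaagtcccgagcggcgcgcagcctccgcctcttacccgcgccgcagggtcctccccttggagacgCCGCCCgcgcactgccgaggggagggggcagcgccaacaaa
*Col4a2*: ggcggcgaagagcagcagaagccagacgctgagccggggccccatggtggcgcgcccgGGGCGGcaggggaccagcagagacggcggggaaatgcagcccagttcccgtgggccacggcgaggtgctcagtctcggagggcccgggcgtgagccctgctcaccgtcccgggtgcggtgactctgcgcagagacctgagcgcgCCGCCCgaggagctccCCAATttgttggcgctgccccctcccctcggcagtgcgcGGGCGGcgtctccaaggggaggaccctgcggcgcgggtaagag
*Col4a5*: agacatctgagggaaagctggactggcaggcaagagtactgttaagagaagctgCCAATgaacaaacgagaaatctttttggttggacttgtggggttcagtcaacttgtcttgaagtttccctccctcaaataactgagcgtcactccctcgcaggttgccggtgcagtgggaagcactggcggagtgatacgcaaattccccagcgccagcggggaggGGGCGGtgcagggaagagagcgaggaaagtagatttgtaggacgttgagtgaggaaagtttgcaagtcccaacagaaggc
*Col4a6*: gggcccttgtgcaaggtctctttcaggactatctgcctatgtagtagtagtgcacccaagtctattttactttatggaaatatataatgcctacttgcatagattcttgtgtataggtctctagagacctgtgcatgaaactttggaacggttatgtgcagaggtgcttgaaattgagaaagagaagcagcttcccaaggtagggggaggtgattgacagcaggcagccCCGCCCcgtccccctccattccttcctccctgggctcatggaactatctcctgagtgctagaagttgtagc
*Col1a2*: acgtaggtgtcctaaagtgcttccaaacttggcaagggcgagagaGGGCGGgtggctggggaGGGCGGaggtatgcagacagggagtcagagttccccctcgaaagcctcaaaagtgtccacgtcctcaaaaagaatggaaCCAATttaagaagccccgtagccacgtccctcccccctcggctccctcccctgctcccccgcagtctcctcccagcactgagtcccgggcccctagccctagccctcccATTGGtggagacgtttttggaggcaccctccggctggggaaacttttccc
The *Col4a1* window held 1 GC box and 1 CCAAT box, and the *Col4a2* window 3 GC boxes and 1 CCAAT box. The GC box of *Col4a1* and the last GC box of *Col4a2* are the same site, read on opposite strands within the 78 shared bases. *Col4a5* had 1 of each, *Col4a6* had 1 GC box and 0 CCAAT boxes, and *Col1a2* had 2 of each. No TATA box and no overlap between motifs was found in these 5 windows. The *Col1a2* window is set on a RefSeq start at 4505618, whereas its GENCODE gene begins at 4504814, outside the window. Among the 32851 windows of all genes and transcripts of this length, 35.7% held a GC box, 37.4% a CCAAT box and 13.6% a TATA box, and of 38 collagen windows 23, 13 and 5 did. Such matches are descriptions of the letters and not evidence of a bound factor. GC made up 74.0% and 73.7% of the *Col4a1* and *Col4a2* windows, which share 78 bases, and 52.7% and 48.3% of the *Col4a5* and *Col4a6* windows. These pairs were shown for how they changed, and a link between sequence and change was not tested.

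Collagen chains took 2.66%, 2.16% and 2.67% of all counted reads in WT, 0.562%, 0.536% and 0.552% in *Atm-/-*, and 1.91%, 1.86% and 1.94% in *Sirt6-/-*. The 3 genotypes did not overlap, with means of 2.50 ± 0.289 percent (SD, n = 3), 0.550 ± 0.0128 and 1.90 ± 0.0428. Each difference had an exact permutation p of 0.1 (two-sided), the smallest that 3 against 3 samples allow, and 0.1 after adjustment over the 18 tests on shares. In bulk RNA, fewer collagen-making cells and less collagen mRNA per cell cannot be told apart. Fibrillar chains made up 78.5% of collagen reads in WT, 71.3% in *Atm-/-* and 75.5% in *Sirt6-/-*, while basement membrane chains made up 14.2%, 13.7% and 0.819%. FACIT chains made up 1.18%, 2.21% and 9.24% of collagen reads in that order, and the other chains 6.03%, 12.8% and 14.5%. These percentages of collagen reads were not tested.

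**Figure D1:**
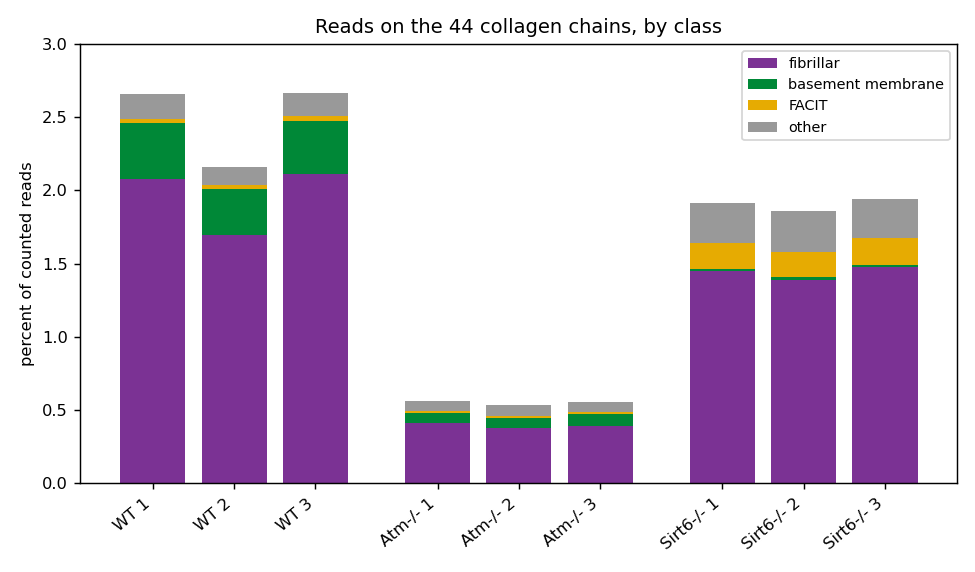
Percent of counted reads on the 44 collagen chains in each of the 9 samples, stacked by class. The *Atm-/-* bars end near 0.55%, and the green basement membrane layer of WT is a thin line in *Sirt6-/-*.

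Of the 44 members, 22 reached a mean of 10 CPM (counts scaled to a common total of counted reads) in at least 1 genotype and 22 did not. *Col1a1* was the leading chain per length in WT with 1739 ± 216 RPKM (reads per kilobase of listed length and per unit of library size, mean ± SD, n = 3), rank 11 of all genes. It also led in *Atm-/-* at 329 ± 19.0 RPKM. In *Sirt6-/-* the leading chain was *Col1a2* at 1520 ± 44.1 RPKM, rank 23 of all genes, ahead of *Col1a1* at 507 ± 13.6 RPKM. *Col1a2* alone held 41.2% of collagen reads there, against 17.9% in WT.

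**Figure D2:**
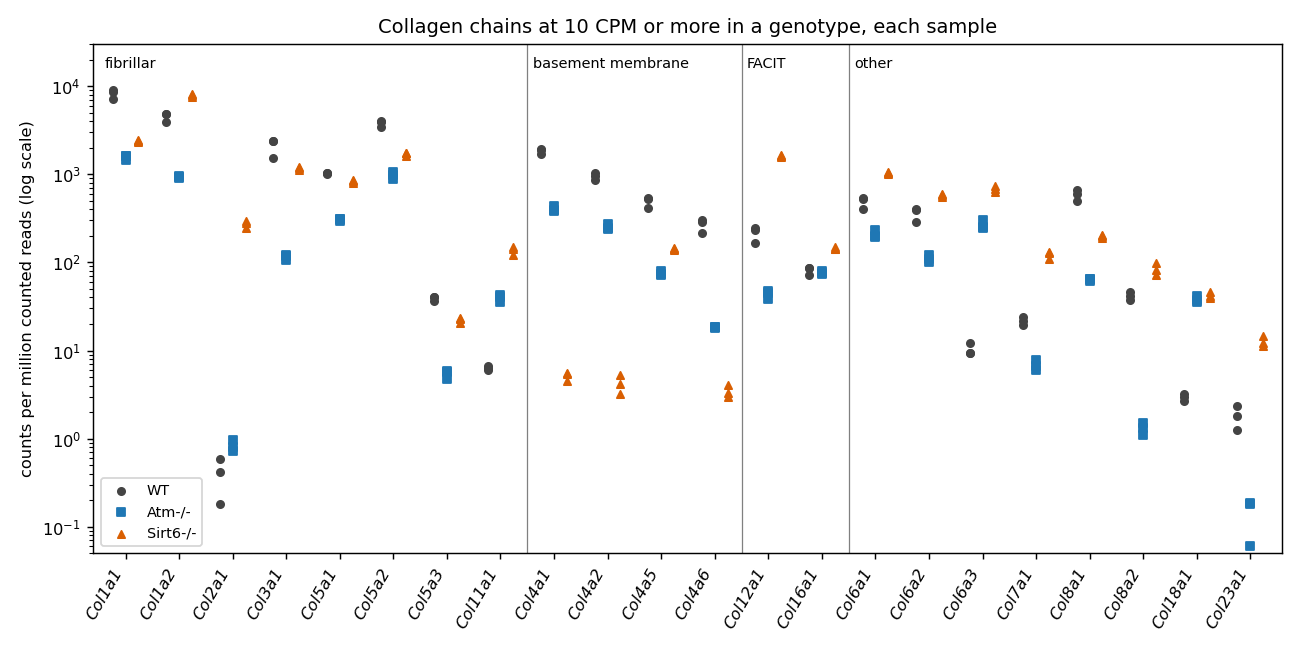
CPM (log axis) of the 22 chains at 10 CPM or more in a genotype, 3 points per genotype. Orange triangles of *Sirt6-/-* lie far below the other genotypes for *Col4a1* and *Col4a2* and far above them for *Col2a1*. For *Col4a6* they lie far below WT and less far below *Atm-/-*.

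Tests used edgeR's quasi-likelihood test across all genes with TMM scaling and Benjamini-Hochberg adjustment, and a gene was called at an adjusted p under 0.05. Enough reads for a test were present for 31 members in *Atm-/-* against WT, 34 in *Sirt6-/-* against WT and 31 in *Atm-/-* against *Sirt6-/-*. In 1 (*Col23a1*), 3 (*Col4a4*, *Col14a1* and *Col10a1*) and 2 (*Col6a4* and *Col23a1*) of these, respectively, a group had fewer than 10 reads in every sample. Such a member passed the filter through the group where it is high, and its call is included in the counts below. Both comparisons with WT share the WT samples.

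In *Atm-/-* against WT, 5 members were called higher and 20 lower, and 6 were not called. Among all 13283 genes tested in this comparison 68.4% were called, 34.7% higher and 33.6% lower, so most members were called lower whereas all genes were called about equally often in both directions. At 2-fold or more, 5 members were higher and 19 lower, against 12.6% and 9.85% of all genes. Scaling by library totals shifted the median log2 fold change of all genes by 0.16 and turned the split of all calls from 4611 higher and 4469 lower to 6156 and 3326. The median log2 fold change over the tested members was -1.82, against 0.02 over all genes tested.

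In *Sirt6-/-* against WT, 14 members were called higher, 13 lower and 7 not called. Background was 76.6% of 13206 genes called, 39.2% higher and 37.4% lower. At 2-fold or more the members split into 10 higher and 10 lower, against 17.5% and 11.8% of all genes. Their median log2 fold change was 0.26, against 0.02 over all genes. The member counts hide opposite directions by class, since all 6 basement membrane chains were lower, 8 of 13 tested other chains were higher, and the fibrillar chains were split 3 higher to 5 lower.

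Set directly against each other, *Atm-/-* had 5 members higher than *Sirt6-/-*, 22 lower and 4 not called. Of 13460 genes tested 75.8% were called, 38.0% higher and 37.8% lower, and at 2-fold or more 11.3% higher and 14.2% lower against 5 and 17 members. The median over the members was -1.51, against 0.00 over all genes.

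Taking both comparisons with WT side by side, 11 members were called lower in both (*Col1a1*, *Col3a1*, *Col5a1*, *Col5a2*, *Col5a3*, *Col4a1*, *Col4a2*, *Col4a4*, *Col4a5*, *Col4a6* and *Col8a1*) and 3 were called higher in both (*Col11a1*, *Col6a3* and *Col18a1*). Another 8 were called lower in *Atm-/-* and higher in *Sirt6-/-*, namely *Col1a2*, *Col12a1*, *Col16a1*, *Col6a1*, *Col6a2*, *Col7a1*, *Col8a2* and *Col23a1*. For each of these 8 the direct comparison was also called, with *Atm-/-* lower than *Sirt6-/-*. This largely follows from how the 8 were picked, on the same samples, and adds no support. The share of all genes in each of these joint patterns was not counted, so the numbers of members have no background here.

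**Figure D3:**
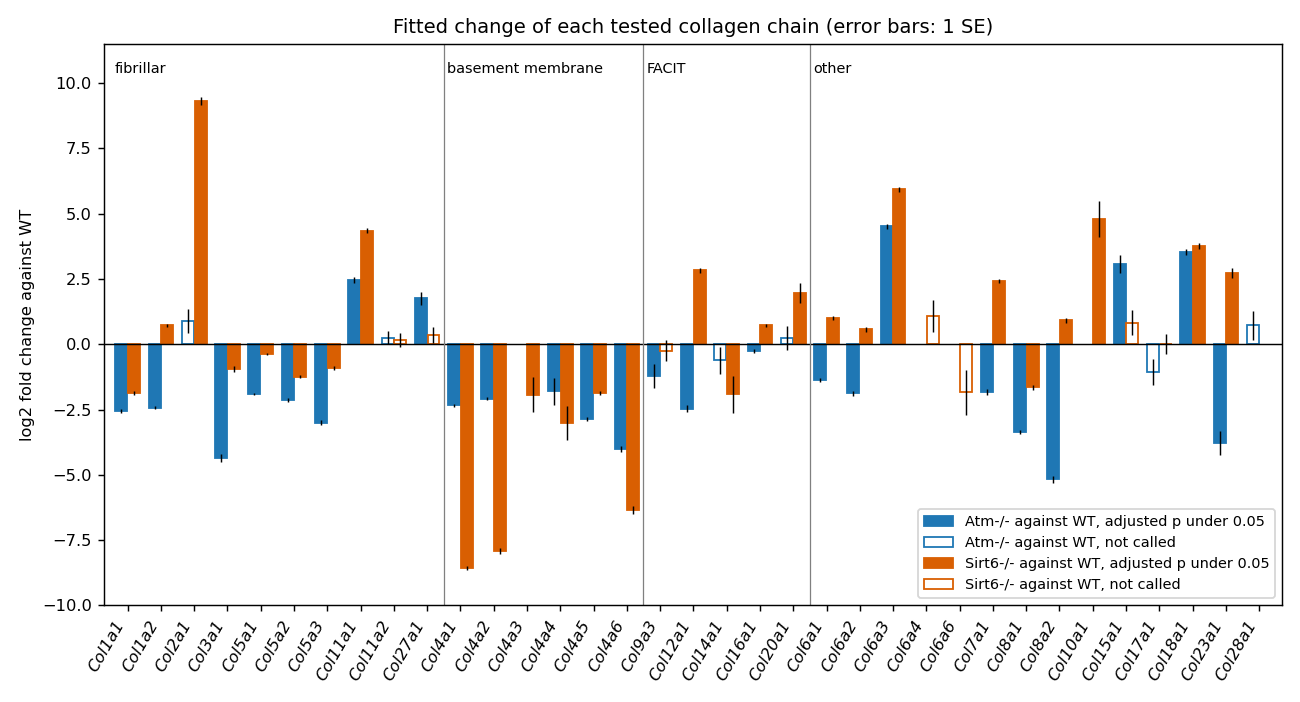
Fitted log2 fold change against WT of each tested member, with 1 SE, in *Atm-/-* (blue) and *Sirt6-/-* (orange), filled where the adjusted p was under 0.05. Bars run from -8.56 for *Col4a1* to 9.33 for *Col2a1*, both in *Sirt6-/-*.

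The type I chains fell together in *Atm-/-* and parted in *Sirt6-/-*. *Col1a1* (chromosome 11 from 94936224 to 94953042 of GRCm38) encodes the alpha1 chain of type I collagen. Its reads numbered 288908, 233430 and 298445 in WT, 53011, 48111 and 51234 in *Atm-/-*, and 77287, 74711 and 81722 in *Sirt6-/-*. WT was highest and no genotypes overlapped. The log2 fold change was -2.57 (SE 0.07, adjusted p = 5.9e-13) in *Atm-/-* and -1.87 (SE 0.07, adjusted p = 5.2e-12) in *Sirt6-/-*. *Col1a2* (chromosome 6 from 4504814 to 4541544), the alpha2 chain, had 161132, 128136 and 158773 reads in WT, 31151, 31257 and 29109 in *Atm-/-*, and 255516, 244162 and 267688 in *Sirt6-/-*. *Atm-/-* was lowest and *Sirt6-/-* highest in every sample. Its log2 fold change was -2.43 (SE 0.07, adjusted p = 3.8e-13) in *Atm-/-* and 0.72 (SE 0.07, adjusted p = 1.4e-07) in *Sirt6-/-*.

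On the RPKM scale the level of *Col1a1* over that of *Col1a2* was 1.96, 1.99 and 2.06 in WT, close to the chain ratio of the common type I trimer, and 1.86, 1.69 and 1.93 in *Atm-/-*. In *Sirt6-/-* it was 0.331, 0.335 and 0.334, so that the alpha2 mRNA exceeded the alpha1 mRNA in all 3 samples. The mean ratio differed between each pair of genotypes with an exact permutation p of 0.1, the smallest allowed, and 0.109 after adjustment over the 12 tests on 4 ratios. A ratio within a sample does not depend on how the samples were scaled.

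Types III and V are the fibril partners of type I. *Col3a1* (chromosome 1 from 45311538 to 45349706), the only chain of type III collagen, had 81375, 50800 and 78873 reads in WT, 3868, 4063 and 3403 in *Atm-/-*, and 35616, 38592 and 38724 in *Sirt6-/-*. WT replicate 2 lay below its partners, yet above every knockout sample. It fell 20.5-fold in *Atm-/-* (log2 fold change -4.36, SE 0.14, adjusted p = 1.8e-12), the largest fall of a fibrillar chain there, and its log2 fold change in *Sirt6-/-* was -0.95 (SE 0.12, adjusted p = 4.4e-06). Its tail-to-tail neighbour *Col5a2* (45374321 to 45503282, a gap of 24614 bases) had 135810, 112570 and 130161 reads in WT, 34471, 29248 and 31525 in *Atm-/-*, and 56621, 51681 and 58511 in *Sirt6-/-*. The log2 fold changes of *Col5a2* were -2.13 (SE 0.07) in *Atm-/-* and -1.24 (SE 0.06) in *Sirt6-/-*. *Col3a1* over *Col5a2* was 0.656 ± 0.104 in WT, 0.142 ± 0.0200 in *Atm-/-* and 0.807 ± 0.0722 in *Sirt6-/-* (RPKM ratio, mean ± SD, n = 3), with an exact permutation p of 0.1 and an adjusted p of 0.109 for each pair.

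*Col5a1*, the main alpha1 chain of type V, fell less. Its reads were 34561, 34580 and 33352 in WT, 10088, 10401 and 9559 in *Atm-/-*, and 27245, 25867 and 28245 in *Sirt6-/-*. The corresponding log2 fold changes were -1.91 (SE 0.04, adjusted p = 3.4e-14) and -0.39 (SE 0.04, adjusted p = 1.0e-06). *Col5a3*, a rarer type V chain, went from 1369, 1354 and 1202 reads in WT to 190, 196 and 152 in *Atm-/-* and 761, 736 and 681 in *Sirt6-/-*, log2 fold changes of -3.00 (SE 0.10) and -0.90 (SE 0.08). Every type III and type V chain thus stood highest in WT, then in *Sirt6-/-*, then in *Atm-/-*.

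The fibrillar chains known from cartilage did not share a pattern, and *Col11a1* was the one called higher in both genotypes. *Col2a1* (chromosome 15 from 97975602 to 98004695), the chain of type II collagen, had 20, 6 and 14 reads in WT and 24, 27 and 31 in *Atm-/-*, but 9082, 7914 and 9890 in *Sirt6-/-*. This rise was 641-fold (log2 fold change 9.33, SE 0.15, adjusted p = 3.8e-16) and brought *Col2a1* from 0.0774 ± 0.0401 to 53.3 ± 5.04 RPKM, the 10th chain by level in that genotype. In *Atm-/-* the log2 fold change of 0.90 (SE 0.45) had an adjusted p of 0.090, and it was called without WT replicate 1 (1.299). *Col11a1*, a partner chain in cartilage fibrils that is also made elsewhere, had 217, 219 and 200 reads in WT, 1320, 1177 and 1361 in *Atm-/-*, and 4638, 3877 and 4974 in *Sirt6-/-*. It rose in both genotypes, by log2 2.46 (SE 0.10, adjusted p = 2.0e-11) and 4.35 (SE 0.09, adjusted p = 8.4e-15). *Col11a2* had 52 to 86 reads in every sample and was called in no comparison. *Col27a1* had 57, 99 and 46 reads in WT, 224, 237 and 294 in *Atm-/-*, and 99, 101 and 68 in *Sirt6-/-*, with a log2 fold change of 1.76 (SE 0.24, adjusted p = 1.6e-05) in *Atm-/-* and 0.35 (SE 0.30, adjusted p = 0.30) in *Sirt6-/-*. Without WT replicate 2 the latter became 0.73 and was called. *Col24a1* had 0 to 4 reads per sample and was not tested.

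Markers of cartilage cells gave a mixed picture beside these values. *Sox9*, the transcription factor of chondrocytes, had 152, 160 and 165 reads in WT, 852, 759 and 778 in *Atm-/-*, and 675, 673 and 666 in *Sirt6-/-*. *Acan*, the cartilage proteoglycan, had 0, 2 and 3 in WT, 2146, 1706 and 2059 in *Atm-/-*, and 54, 42 and 62 in *Sirt6-/-*, so it was highest in the genotype without a called rise of *Col2a1*. *Matn1* was at 0 in all 9 samples, *Hapln1* had at most 1 read, *Comp* had 0 to 20, and *Matn3* fell from 116, 105 and 93 in WT to 16, 14 and 10 in *Sirt6-/-*. Over the 6 genes of the list the summed level was 8.001 to 8.354 CPM in WT, 76.0 to 92.8 in *Atm-/-* and 22.8 to 23.4 in *Sirt6-/-*. *Col9a1*, whose product sits on cartilage fibrils, was at 0 in all samples. *Col9a2* and *Col9a3* had 0 to 6 and 21 to 40 reads in *Sirt6-/-*, and 0 to 8 and 22 to 44 in WT. Exons of *Col9a3* overlap those of *Tcfl5*, on the other strand, by 234 bases. The part of such cells in the collagen values was not tested.

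Of the 6 basement membrane chains, 5 were tested in *Atm-/-* and all 5 were called lower, and in *Sirt6-/-* all 6 were tested and called lower. *Col4a1* (chromosome 8 from 11198423 to 11312826), the alpha1 chain of the ubiquitous type IV network, had 64672, 56259 and 62913 reads in WT, 12994, 12808 and 14062 in *Atm-/-*, and 174, 179 and 151 in *Sirt6-/-*. The fall was 378-fold in *Sirt6-/-* (log2 fold change -8.56, SE 0.08, adjusted p = 3.7e-18) and 5.07-fold in *Atm-/-* (log2 fold change -2.34, SE 0.06, adjusted p = 1.2e-13). *Col4a2* (11312805 to 11449287), which supplies the alpha2 chain from the promoter shared in the first sequences above, had 35264, 28851 and 31754 reads in WT, 8063, 7948 and 8846 in *Atm-/-*, and 133, 170 and 106 in *Sirt6-/-*. It fell 243-fold in *Sirt6-/-* (log2 fold change -7.92, SE 0.12, adjusted p = 3.1e-16) and 4.24-fold in *Atm-/-* (log2 fold change -2.08, SE 0.07, adjusted p = 2.0e-12). Both genes of the pair therefore moved in the same direction in each genotype, with the larger fall in *Col4a1*.

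The ratio of *Col4a1* to *Col4a2* in RPKM was 1.78, 1.89 and 1.92 in WT, 1.57, 1.57 and 1.54 in *Atm-/-*, and 1.27, 1.02 and 1.38 in *Sirt6-/-*, where it rests on few reads. The genotypes did not overlap (exact permutation p = 0.1 and adjusted p = 0.109 for each pair). Exons of both genes overlap by 22 bases, and the library protocol does not mark strand, so reads in those bases cannot be assigned.

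The second pair also fell in both genotypes, but by amounts further apart than in the first pair. *Col4a6* (chromosome X from 141165403 to 141474076), the alpha6 chain, had 10137, 7062 and 9483 reads in WT, 593, 616 and 600 in *Atm-/-*, and 96, 107 and 135 in *Sirt6-/-*. Its log2 fold change was -4.02 (SE 0.11, adjusted p = 2.7e-13) in *Atm-/-* and -6.35 (SE 0.14, adjusted p = 1.5e-14) in *Sirt6-/-*. *Col4a5* (141475385 to 141689234), the alpha5 chain with which it assembles, had 17674, 13557 and 17649 reads in WT, 2620, 2444 and 2322 in *Atm-/-*, and 4628, 4468 and 4873 in *Sirt6-/-*. Its log2 fold changes were -2.86 (SE 0.09, adjusted p = 7.4e-13) and -1.86 (SE 0.08, adjusted p = 2.2e-11). The order of the knockouts thus differed between the partners, with *Col4a5* lowest in *Atm-/-* and *Col4a6* lowest in *Sirt6-/-*, and both direct comparisons were called (log2 of *Atm-/-* over *Sirt6-/-* -0.99, SE 0.05, for *Col4a5* and 2.35, SE 0.13, for *Col4a6*). The RPKM ratio of *Col4a5* to *Col4a6* was 1.89 ± 0.0919 in WT, 4.18 ± 0.2995 in *Atm-/-* and 43.0 ± 6.21 in *Sirt6-/-*. This ratio was chosen after its values were seen and was not tested.

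*Col4a3* and *Col4a4*, another head-to-head pair with 71 bases between them on chromosome 1, were hardly transcribed. *Col4a4* had 20, 48 and 28 reads in WT, 4, 13 and 13 in *Atm-/-*, and 6, 0 and 6 in *Sirt6-/-*, and was called lower in both (adjusted p = 0.0055 and 0.00067). In the comparison of *Sirt6-/-* with WT, *Col4a4* passed the filter only through its WT reads. *Col4a3* had 35, 7 and 29 reads in WT, 6, 10 and 8 in *Atm-/-*, and 1, 10 and 8 in *Sirt6-/-*, with groups that overlapped. Its call in *Sirt6-/-* (log2 fold change -1.93, SE 0.67, adjusted p = 0.017) was lost without WT replicate 1 (-1.56), WT replicate 3 (-1.77) or *Sirt6-/-* replicate 1 (-1.43).

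**Figure D4:**
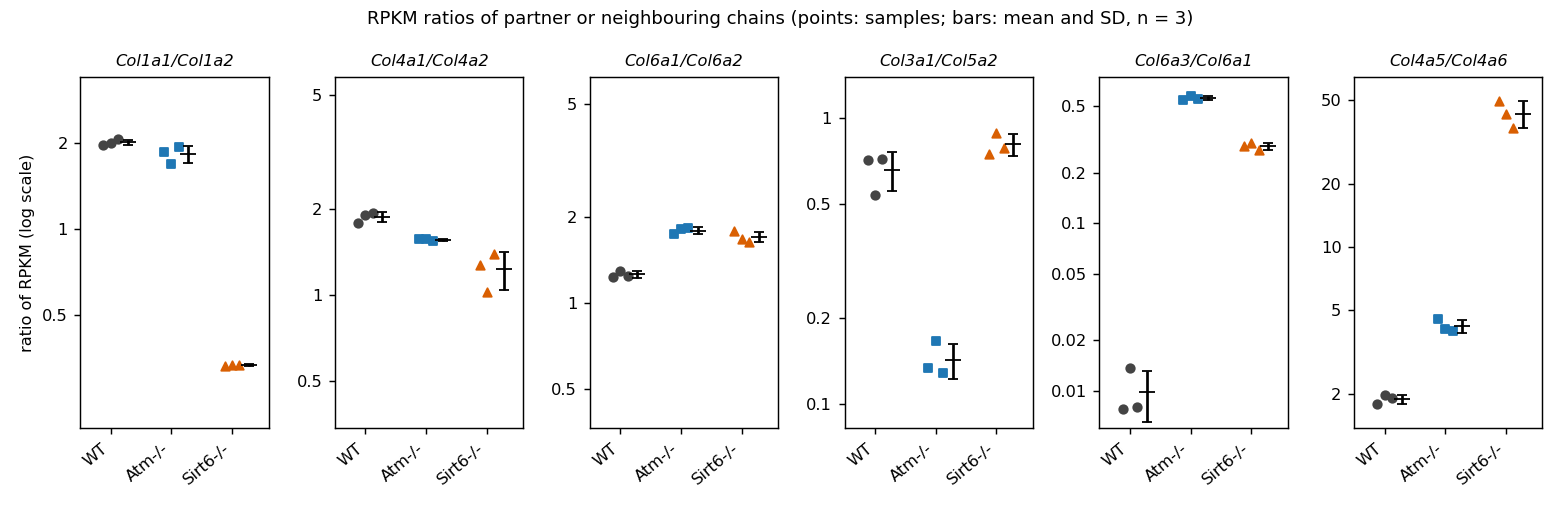
RPKM ratio (log axes, a scale for each panel) of 6 pairs of chains in the 3 samples of each genotype, with mean and SD. *Col1a1* over *Col1a2* drops from 2.005 to 0.333 in *Sirt6-/-*, and *Col4a5* over *Col4a6* climbs to 43.0.

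The FACIT reads lay almost wholly on *Col12a1* and *Col16a1*, with *Col12a1* the higher in WT and *Sirt6-/-* and *Col16a1* the higher in *Atm-/-*. *Col12a1* encodes the chain of type XII collagen, a large homotrimer on type I fibrils, and lies on chromosome 9 from 79598991 to 79718831. Reads were 7836, 5447 and 8069 in WT, 1543, 1264 and 1450 in *Atm-/-*, and 52328, 49959 and 55379 in *Sirt6-/-*. *Sirt6-/-* was far above WT and *Atm-/-* below it. The log2 fold change was 2.83 (SE 0.11, adjusted p = 5.2e-12) in *Sirt6-/-* and -2.46 (SE 0.12, adjusted p = 1.9e-10) in *Atm-/-*, and *Atm-/-* stood 38.8-fold below *Sirt6-/-*. *Col16a1*, of type XVI collagen, had 2923, 2406 and 2862 reads in WT, 2426, 2651 and 2437 in *Atm-/-*, and 4552, 4538 and 4993 in *Sirt6-/-*. It rose in *Sirt6-/-* (log2 fold change 0.73, SE 0.07, adjusted p = 1.0e-07). In *Atm-/-* it overlapped WT in counts, and its call there (log2 fold change -0.26, SE 0.07, adjusted p = 0.0035) was lost with library totals (-0.10, adjusted p = 0.22).

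The remaining FACITs were scarce. *Col20a1* had 8 to 22 reads in WT and *Atm-/-* samples and 53 to 70 in *Sirt6-/-*, a called rise (log2 fold change 1.96, SE 0.39, adjusted p = 0.00033). *Col14a1* had 19, 10 and 16 reads in WT and 6, 6 and 0 in *Sirt6-/-*, with a call (adjusted p = 0.021) that was lost without WT replicate 1 (adjusted p = 0.068), WT replicate 3 (0.052) or *Sirt6-/-* replicate 3 (0.070), with no filter on low counts (0.059) and by the DESeq2 Wald test (0.051). *Col9a3* was called lower in *Atm-/-* (log2 fold change -1.23, SE 0.47, adjusted p = 0.030) at 22 to 44 reads in WT and 7 to 24 in *Atm-/-*, and this call too was lost on leaving out any of 4 samples (WT replicates 1 and 2, *Atm-/-* replicates 1 and 3), the log2 fold change then being between -1.28 and -0.88, with library totals (adjusted p = 0.054) and by the DESeq2 Wald test (0.054). *Col22a1* was at 0 in all WT and *Sirt6-/-* samples and had 19, 7 and 6 reads in *Atm-/-*, at least 3.62-fold higher than a floor of 3 reads per library in WT. *Col19a1* had at most 2 reads.

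The beaded filament chains of type VI changed unevenly. *Col6a1* (chromosome 10 from 76708792 to 76726168) had 18056, 13219 and 17261 reads in WT, 6603, 7749 and 6332 in *Atm-/-*, and 33543, 34135 and 33711 in *Sirt6-/-*. Its neighbour *Col6a2* (76595762 to 76623630) had 13672, 9533 and 12964, then 3556, 3987 and 3249, then 17616, 18991 and 19220. Both were lower in *Atm-/-* (log2 fold change -1.37, SE 0.09, and -1.88, SE 0.10) and higher in *Sirt6-/-* (1.01, SE 0.08, and 0.57, SE 0.09). *Col6a3*, the long alpha3 chain without which the common type VI trimer does not form, lies on chromosome 1 from 90765923 to 90843971. It had only 318, 407 and 314 reads in WT, against 8193, 10078 and 7914 in *Atm-/-* and 22048, 23417 and 20857 in *Sirt6-/-*. The rise was 22.9-fold in *Atm-/-* (log2 fold change 4.52, SE 0.10, adjusted p = 6.4e-14) and 61.5-fold in *Sirt6-/-* (log2 fold change 5.94, SE 0.09, adjusted p = 3.8e-16).

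Per length, *Col6a3* stood at 0.00978 ± 0.00328 of *Col6a1* in WT, 0.557 ± 0.0142 in *Atm-/-* and 0.288 ± 0.0149 in *Sirt6-/-* (RPKM ratio), a ratio chosen after its values were seen and not tested. WT cells thus held mRNA of 2 of the 3 usual type VI chains at 121 and 96.5 RPKM but of alpha3 at 1.15 RPKM. The ratio of *Col6a1* to *Col6a2* was 1.26 ± 0.0332 in WT, 1.80 ± 0.0485 in *Atm-/-* and 1.71 ± 0.0725 in *Sirt6-/-*. Both knockouts differed from WT with an exact permutation p of 0.1 (adjusted p = 0.109), and they overlapped each other (exact permutation p = 0.2, adjusted p = 0.2). Of the chains that can take the place of alpha3, *Col6a4* had 2 to 16 reads, *Col6a5* had 0 to 8 and *Col6a6* had 0 to 54 per sample. *Col6a4* was called lower in *Atm-/-* than in *Sirt6-/-* (adjusted p = 0.016), a call lost without *Atm-/-* replicate 2, *Sirt6-/-* replicate 1 or *Sirt6-/-* replicate 3 (adjusted p = 0.056, 0.057 and 0.055), with no filter on low counts (0.078) and by the DESeq2 Wald test (0.061). Its comparison with WT in *Sirt6-/-* (log2 fold change 1.07, SE 0.60, adjusted p = 0.12) became a call without WT replicate 2 (1.90, adjusted p = 0.029). *Col6a6* was not called in *Sirt6-/-* (-1.84, adjusted p = 0.062) but was without WT replicate 2 (-2.23), WT replicate 3 (-2.23) or *Sirt6-/-* replicate 2 (-3.60), with no filter on low counts (-1.85) and by edgeR's exact test (-1.84), whereas it moved to -0.58 without WT replicate 1, which held 54 of its WT reads.

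The lattice chains of type VIII, found around vessels and in the cornea, also parted. *Col8a1* fell in both genotypes, from 22196, 16378 and 19854 reads in WT to 2134, 2167 and 1978 in *Atm-/-* and 6601, 6395 and 6227 in *Sirt6-/-* (log2 fold change -3.35, SE 0.09, and -1.66, SE 0.08). *Col8a2* (chromosome 4 from 126286793 to 126314330) had 1559, 1240 and 1379 reads in WT, 36, 44 and 48 in *Atm-/-*, and 2673, 2306 and 3244 in *Sirt6-/-*. It was 35.8-fold lower in *Atm-/-* (log2 fold change -5.16, SE 0.13, adjusted p = 1.8e-13) and higher in *Sirt6-/-* (log2 fold change 0.92, SE 0.10, adjusted p = 9.3e-07). Among members called lower in *Atm-/-*, *Col8a2* had the largest fitted fall. *Col10a1*, the short chain of hypertrophic cartilage, had 0, 0 and 4 reads in WT, 14, 11 and 5 in *Atm-/-*, and 45, 38 and 42 in *Sirt6-/-*. It was called higher in *Sirt6-/-* with a size that depends on the 4 WT reads (log2 fold change 4.79, and 8.36 without WT replicate 3). Its exons overlap those of *Nt5dc1*, on the other strand, by 18 bases.

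*Col7a1*, the chain of anchoring fibrils beneath epithelia, had 806, 643 and 718 reads in WT, 254, 224 and 195 in *Atm-/-*, and 4207, 3553 and 4262 in *Sirt6-/-*. Its log2 fold change was -1.82 (SE 0.12, adjusted p = 5.7e-09) in *Atm-/-* and 2.42 (SE 0.08, adjusted p = 1.7e-12) in *Sirt6-/-*. *Col18a1* (chromosome 10 from 77052178 to 77166548), a basement membrane zone collagen whose tail is released as endostatin, had 90, 106 and 99 reads in WT, 1227, 1185 and 1340 in *Atm-/-*, and 1342, 1280 and 1522 in *Sirt6-/-*. It rose by similar amounts in both, log2 3.53 (SE 0.11) and 3.76 (SE 0.11). The direct difference of -0.21 (SE 0.07, adjusted p = 0.014) lost its call without *Atm-/-* replicate 2 (adjusted p = 0.070) or *Sirt6-/-* replicate 3 (0.10), and with library totals (0.066). *Col15a1*, its closest relative, had 19, 11 and 16 reads in WT, 104, 218 and 108 in *Atm-/-*, and 47, 18 and 20 in *Sirt6-/-*, and was called higher in *Atm-/-* (log2 fold change 3.07, SE 0.36, adjusted p = 2.6e-06).

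Of the transmembrane collagens, *Col23a1* had 43, 77 and 60 reads in WT, 6, 2 and 6 in *Atm-/-*, and 368, 476 and 404 in *Sirt6-/-*. Its log2 fold change was -3.78 (SE 0.47, adjusted p = 4.8e-06) in *Atm-/-* and 2.74 (SE 0.20, adjusted p = 8.9e-09) in *Sirt6-/-*. In both comparisons with *Atm-/-*, *Col23a1* passed the filter only through the other genotype. *Col17a1* had 4 to 32 reads and *Col28a1*, an unclassed chain, 4 to 18, with no call for either, although *Col17a1* was called lower in *Atm-/-* than in *Sirt6-/-* without *Atm-/-* replicate 2 (adjusted p = 0.042) or 3 (0.049). *Col13a1* and *Col26a1* were at 0 in all 9 samples, like *Col9a1*, and *Col25a1* had 2 reads in 1 sample. An all-zero gene in these libraries lies under 0.0887 to 0.0932 CPM, the level of 3 reads, which covers counting error only.

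Procollagen chains pass through a chain of enzymes before they become fibrils. Prolyl hydroxylases and chaperones stabilise the helix in the endoplasmic reticulum, lysyl hydroxylases prepare cross-links, COPII components and proteinases handle export and trimming, and lysyl oxidases join molecules outside the cell. Of 44 such genes listed by role, 41 were tested in each comparison. In *Atm-/-* against WT 8 were called higher, 31 lower and 2 not called, with a median log2 fold change of -0.84, against the background of 34.7% higher and 33.6% lower. In *Sirt6-/-* against WT 20 were higher, 16 lower and 5 not called (median 0.28), against 39.2% and 37.4%. Directly compared, 5 were higher in *Atm-/-* than in *Sirt6-/-*, 32 lower and 4 not called (median -1.13), against 38.0% and 37.8%.

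Among the prolyl hydroxylation and chaperone genes, 10 of 13 fell and 3 rose in *Atm-/-*, and 6 fell and 6 rose in *Sirt6-/-*. *P4ha1*, a catalytic subunit of the main prolyl 4-hydroxylase, had the largest fall in *Atm-/-*, from 11017, 8897 and 10789 reads in WT to 3900, 3898 and 3779 (log2 fold change -1.54, SE 0.07). Its minor relative *P4ha3* had the largest rise in both genotypes, from 32, 40 and 31 reads in WT to 312, 373 and 351 in *Atm-/-* (log2 fold change 3.19, SE 0.18) and 2066, 1970 and 2215 in *Sirt6-/-* (5.86, SE 0.11). In *Sirt6-/-* the largest fall was that of *P3h4*, a cofactor of lysyl hydroxylation in the reticulum, at -0.62 (SE 0.05). Every gene of this list was lower in *Atm-/-* than in *Sirt6-/-*, *P4ha3* most (-2.66, SE 0.08).

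The 9 tested genes of lysyl modification and cross-linking split into 1 higher, 7 lower and 1 not called in *Atm-/-* and 4, 4 and 1 in *Sirt6-/-*. *Plod2*, the hydroxylase of telopeptide lysines, had 12404, 12442 and 13133 reads in WT and 2044, 1773 and 1745 in *Atm-/-* (log2 fold change -2.91, SE 0.06). *Lox*, the principal lysyl oxidase, had 48758, 39633 and 48560 reads in WT, 19556, 16979 and 19143 in *Atm-/-*, and 130410, 132103 and 138075 in *Sirt6-/-*, and it showed the largest fall of the list between *Atm-/-* and *Sirt6-/-* (-2.91, SE 0.05). Its relative *Loxl4* had the largest rise in both comparisons with WT, from 447, 527 and 486 reads to 2158, 1984 and 2202 in *Atm-/-* (1.98, SE 0.08) and 8804, 9017 and 8628 in *Sirt6-/-* (4.13, SE 0.07). *Loxl2* had the largest fall in *Sirt6-/-* (-1.66, SE 0.05), and *Loxl3* was the gene higher in *Atm-/-* than in *Sirt6-/-* (0.44, SE 0.08). *Colgalt2* had at most 2 reads and was not tested.

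For export and propeptide cleavage, 3 of 11 tested genes were higher and 8 lower in *Atm-/-*, and 7 higher and 4 lower in *Sirt6-/-*. *Tll1*, a procollagen C-proteinase related to BMP1, had 6, 2 and 0 reads in WT, 226, 159 and 182 in *Atm-/-*, and 213, 117 and 221 in *Sirt6-/-*, the largest rise in each, with a size that depends on few WT reads (log2 fold change 5.95, SE 0.44, and 5.99, SE 0.49). In both comparisons with WT, *Tll1* passed the filter only through the knockout, where it is high, and its call is included in the counts given. Among the N-proteinases, *Adamts14* had the largest fall in *Atm-/-*, from 338, 254 and 311 reads in WT to 66, 75 and 95 (-2.07, SE 0.18), and was also the most reduced against *Sirt6-/-* (-2.52, SE 0.15). *Adamts3*, which had 270, 246 and 292 reads in WT and 20, 19 and 27 in *Sirt6-/-*, had the largest fall there (-3.66, SE 0.21) and was higher in *Atm-/-* than in *Sirt6-/-* (2.56, SE 0.26).

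Of the 8 receptors and uptake genes, 1 was higher, 6 lower and 1 not called in *Atm-/-*, and 3, 2 and 3 in *Sirt6-/-*. The collagen-binding integrin subunits alpha1 and alpha2 moved in opposite directions. *Itga1* had 820, 457 and 766 reads in WT, 71, 59 and 84 in *Atm-/-*, and 182, 219 and 221 in *Sirt6-/-*, with log2 fold changes of -3.39 (SE 0.22) and -1.77 (SE 0.18). *Itga2* had 21, 19 and 14 reads in WT, 927, 797 and 873 in *Atm-/-*, and 41, 50 and 43 in *Sirt6-/-*, with log2 fold changes of 5.44 (SE 0.16) and 1.25 (SE 0.35), and 4.20 (SE 0.14) for *Atm-/-* over *Sirt6-/-*. *Itga11*, a fibroblast collagen receptor subunit, had the largest fall between *Atm-/-* and *Sirt6-/-* (-2.58, SE 0.35) on 12, 16 and 21 against 109, 59 and 113 reads.

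**Figure D5:**
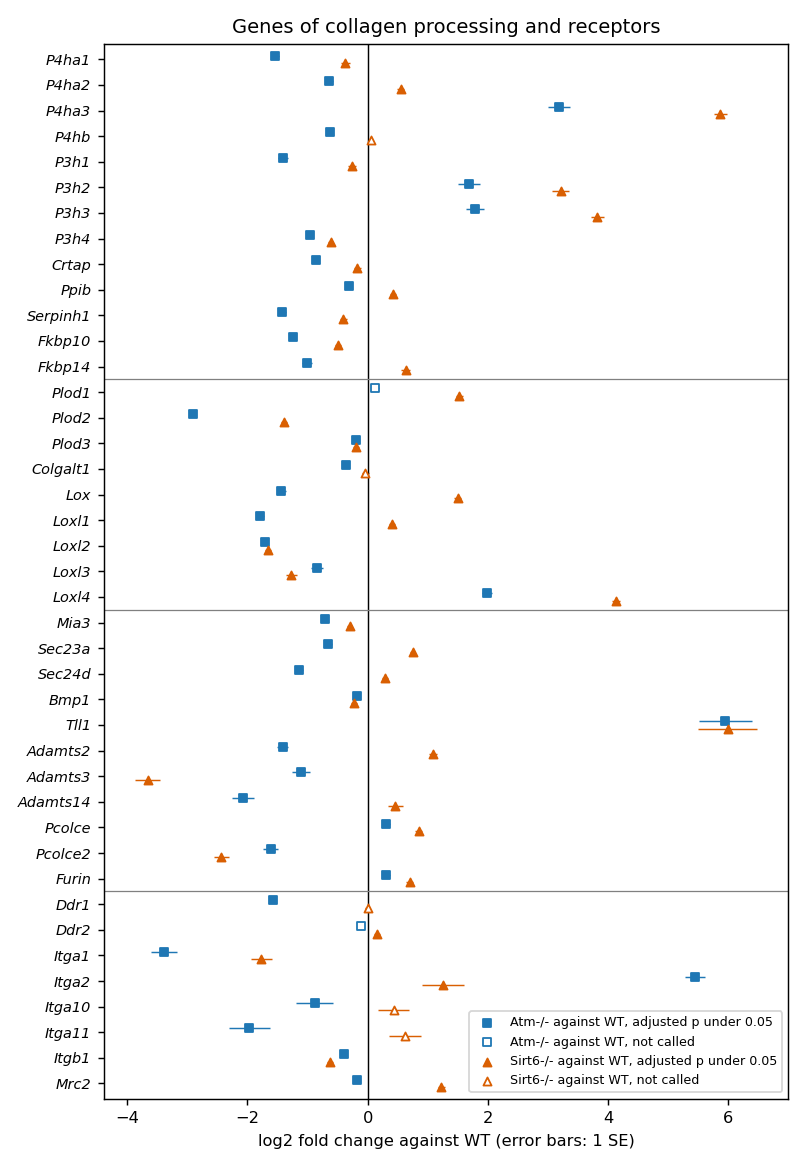
Log2 fold change against WT, with 1 SE, of the 41 tested genes of collagen processing, export and receptors, in *Atm-/-* (blue squares) and *Sirt6-/-* (orange triangles), open where not called. Blue squares lie mostly left of 0, whereas orange triangles lie on both sides.

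The fibroblast label was checked against 9 marker genes. *Vim*, *Fn1*, *S100a4*, *Pdgfra*, *Pdgfrb* and *Dcn* were above 1 CPM in every genotype, *Thy1* had 1, 33 and 12 reads in *Sirt6-/-* against 941, 590 and 785 in WT and 2874, 3200 and 2970 in *Atm-/-*, *Lum* had at most 10 reads, and *Fap* was at or near 0 outside *Atm-/-* (23, 58 and 14 reads). Summed over the list, the level was 13403 to 14114 CPM in WT, 7094 to 7235 in *Atm-/-* and 8952 to 9229 in *Sirt6-/-*. *Fn1* and *Vim* carry most of this sum. By gene, 2 of the list were called higher (*Thy1* and *Fap*) and 6 lower in *Atm-/-*, whereas in *Sirt6-/-* 3 were higher (*S100a4*, *Pdgfrb* and *Dcn*, log2 fold change 1.63, 1.31 and 0.45) and 4 lower. Of all genes tested, 68.4% were called in *Atm-/-* (34.7% higher and 33.6% lower). In *Sirt6-/-* it was 76.6% (39.2% higher and 37.4% lower). *Fap*, with 0 reads in every WT sample, passed the filter only through *Atm-/-*, where it is high. The summed smooth muscle list was also lower in both knockouts (2348 to 2541 CPM in WT, 935.2 to 1207 in *Atm-/-* and 1269 to 1612 in *Sirt6-/-*), with *Acta2* and *Tagln*, which activated fibroblasts also express, as its main genes. The part of either list in the collagen values was not tested. Markers of other cells were a mixture of near-zero genes and genes with reads that differed between genotypes. *Ptprc* had at most 6 reads, *Pecam1* at most 10, and *Myog* and *Myf5* were at 0. *Krt18* had 979, 891 and 1044 reads in *Atm-/-* against 268, 198 and 217 in WT (log2 fold change 1.96, SE 0.12), and *Kdr* had 422, 386 and 330 against 98, 135 and 86 (1.69, SE 0.17). *Tubb3* had 959, 965 and 956 reads in *Sirt6-/-* against 63, 55 and 59 in WT (3.97, SE 0.11). *Csf1r* had 252, 231 and 247 reads in WT, 21, 23 and 30 in *Atm-/-*, and 62, 96 and 50 in *Sirt6-/-*, and was called lower in both. Their part in the collagen values was not tested. The summed epithelial, endothelial, blood and immune, skeletal muscle, neural and Schwann, and adipocyte lists stayed at or under 50.9 CPM in every sample. The osteoblast list lay between 31.9 and 87.0 CPM, with *Ibsp* at 0. WT replicate 2 stood apart from its partners (chi-square per degree of freedom 15.6 and 14.4, against 5.11 to 6.66 for the other pairs of a genotype) and had the lowest collagen share of WT. Without it the share difference was -2.11 percentage points in *Atm-/-* and -0.758 in *Sirt6-/-*, against -1.95 and -0.591 with it.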

How the data were processed

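RNA-Seq data of 9 MEF samples (3 WT, 3 *Atm-/-*, 3 *Sirt6-/-*) were used, grouped by the genotype labels. For each sample the authors deposited read counts of 24341 genes, which are whole numbers without normalization, and RPKM, which the authors made from the same counts with a listed length and a read total per sample. The submitters' processing notes name mm10 as the genome build, and the aligner and counting tool are not given in the sources used here. RPKM served for levels and ratios, counts for tests.

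Each pair of genotypes was fitted with edgeR 4.0.16 in R 4.3.3. The steps were filterByExpr, TMM, glmQLFit with a prior count of 0.125 and glmQLFTest. Calls were made at a Benjamini-Hochberg adjusted p under 0.05 over all genes tested. The procedure was first run on simulated counts with few changed genes, which does not check it where most genes are called, as here. Standard errors were computed from the F statistic. Folds of genes with few reads depend on the prior count. Shares and ratios were compared by exact two-sided permutation tests (scipy 1.17.1 in Python 3.11.15). Counts of every sample are given for members at 10 CPM or more in a genotype, and of each processing list the largest called rise and fall are named. The members, classes and lists were chosen with earlier results of these data known. Positions are from GENCODE on GRCm38 and promoters from RefSeq, GRCm38.p6. Alternatives were DESeq2 size factors, library totals, no filter, at least 10 counts in every sample, all 9 samples in 1 fit, the exact test of edgeR, the DESeq2 1.42.0 Wald test, replicate number added as a block, a prior count of 2, a threshold of 2-fold, and omission of each sample.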

Additional observations from a re-analysis of the deposited data

How the results depend on the processing

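Across the alternatives, the number of members called ranged from 22 to 30 in *Atm-/-* against WT, 20 to 30 in *Sirt6-/-* against WT and 22 to 29 in *Atm-/-* against *Sirt6-/-*, in each case within 1.5 times the reported count. Of 457 values of single members in the first comparison 444 kept their direction and side of the threshold, of 502 in the second 484, and of 459 in the third 444. The direction reversed for 4 fold changes, none of them called, when a sample was left out: *Col20a1* in *Atm-/-* against WT (-0.053 to 0.65), *Col9a3* (-0.58 to 0.044) and *Col17a1* (-0.18 to 0.19) in *Sirt6-/-* against WT, and *Col11a2* in *Atm-/-* against *Sirt6-/-* (-0.047 to 0.26). The cause was not tested, and these genes had few reads in every sample. With library totals 2 genes of lysyl modification and cross-linking were called higher in *Atm-/-* instead of 1, which follows from the shift of all genes under that scaling. *Col2a1* in *Atm-/-* was called with library totals (1.06), with all 9 samples in 1 fit (0.90), by edgeR's exact test (0.90) and without WT replicate 1 (1.299). Samples of a genotype share only a number with those of another: correlations of same-numbered samples ran from -0.03 to 0.05. A block for replicate number left 25, 27 and 27 members called, as without it.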
